A study of Mus musculus with 2 samples.

Results

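The Prader-Willi and Angelman imprinted locus of the mouse lies on chromosome 7 and was examined through 6 of its genes, Snrpn, Ube3a, Ndn, Magel2, Mkrn3 and Peg12. They were taken by name from the GENCODE M21 annotation of mm10, which holds 55450 genes, 21951 of them protein-coding, and all 6 were found. Every DNase I hypersensitive site (DHS, a called peak of accessible DNA) and every footprint (a short stretch called as protected from DNase I) was collected within 1 kb of their transcription starts, in their gene bodies and across the locus. The locus ran from the first to the last of the 6 genes with 50 kb on either side, chr7:59178750-62514510, and held 79 of the 90059 DHSs of replicate 1 and 119 of the 175597 DHSs of replicate 2.

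The material was the left cerebral cortex of 2 female mice of the strain B6CASTF1/J, a first-generation hybrid of C57BL/6J with CAST/EiJ, aged 14 days, and the labels state no treatment. Each animal gave 1 DNase-seq library, in which DNA cut by DNase I in nuclei is sequenced, and both libraries belong to 1 group. They carry separate animal numbers under 1 donor record, so the spread over n = 2 may be partly technical. With 1 group there was nothing to test, and all values are descriptions.

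Genomic imprinting is the expression of a gene from the copy of 1 parent, set by DNA methylation laid down in the germ line. In this region Snrpn, Ndn, Magel2, Mkrn3 and Peg12 are expressed from the paternal copy, under an imprinting centre at the Snrpn promoter. Ube3a is expressed from the maternal copy in neurons, where a long transcript from the Snrpn side, read through clusters of small nucleolar RNA (snoRNA) genes, silences the paternal copy. In humans, loss of the paternal contribution causes Prader-Willi syndrome and loss of maternal UBE3A causes Angelman syndrome. The deposited files do not separate the parental alleles, so 1 open copy and an even opening of both copies cannot be told apart. The tissue is a mixture of cells, and likewise fewer accessible cells and less cutting per cell cannot be told apart.

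The promoter sequences at the starts of the 6 genes are shown first, because they carry the footprints described below. Each is the DHS at the RefSeq start, ended 50 bases past that start, read 5′ to 3′ on the strand of the gene from the RefSeq sequence of GRCm38.p6 (mm10). That reference is of C57BL/6J, so CAST/EiJ bases are not shown. Capitals mark bases that lay in a footprint of both libraries. The windows were chr7:59228541-59228800 on the plus strand for Ube3a, chr7:60005149-60005260 on the minus strand for Snrpn and chr7:62420103-62420320 on the minus strand for Mkrn3. They were chr7:62348181-62348327 on the plus strand for Ndn, chr7:62376941-62377029 on the plus strand for Magel2 and chr7:62464460-62464759 on the minus strand for Peg12.
Ube3a: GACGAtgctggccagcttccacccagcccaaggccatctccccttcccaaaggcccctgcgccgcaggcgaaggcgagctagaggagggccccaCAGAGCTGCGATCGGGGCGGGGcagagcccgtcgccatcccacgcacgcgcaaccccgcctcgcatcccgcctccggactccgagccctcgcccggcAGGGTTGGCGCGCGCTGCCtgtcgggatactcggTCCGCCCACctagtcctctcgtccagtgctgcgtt
Snrpn: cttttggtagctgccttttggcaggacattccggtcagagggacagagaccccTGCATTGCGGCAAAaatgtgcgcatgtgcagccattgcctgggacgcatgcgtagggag
Mkrn3: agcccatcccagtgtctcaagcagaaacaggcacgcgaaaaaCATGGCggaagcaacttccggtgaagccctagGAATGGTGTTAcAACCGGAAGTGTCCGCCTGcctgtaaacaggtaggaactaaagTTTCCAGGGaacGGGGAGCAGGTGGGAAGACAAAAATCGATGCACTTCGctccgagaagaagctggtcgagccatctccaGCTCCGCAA
Ndn: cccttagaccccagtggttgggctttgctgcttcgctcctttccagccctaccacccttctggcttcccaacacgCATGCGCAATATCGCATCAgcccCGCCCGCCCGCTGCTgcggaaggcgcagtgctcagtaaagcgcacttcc
Magel2: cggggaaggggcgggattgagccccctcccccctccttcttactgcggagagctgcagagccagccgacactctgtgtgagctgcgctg
Peg12: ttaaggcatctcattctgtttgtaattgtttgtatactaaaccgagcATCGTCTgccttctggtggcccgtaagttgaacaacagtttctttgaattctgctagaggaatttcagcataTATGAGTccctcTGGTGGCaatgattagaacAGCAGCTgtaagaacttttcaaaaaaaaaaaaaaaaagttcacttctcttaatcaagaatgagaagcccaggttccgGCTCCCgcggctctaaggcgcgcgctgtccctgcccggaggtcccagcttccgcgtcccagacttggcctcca

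In these windows, footprints of both libraries covered 91 of 218 bases at Mkrn3, 55 of 260 at Ube3a, 34 of 147 at Ndn, 34 of 300 at Peg12 and 14 of 112 at Snrpn. At Magel2 they covered 0 of 89 bases, and the bases footprinted in both libraries lay farther into the gene.

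All 6 genes had a DHS at a RefSeq start in both animals, and 5 of 6 had one within 1 kb of a GENCODE start. Beside this stand 61.8% of all genes with RefSeq mRNAs and 62.7% of all protein-coding genes by GENCODE starts. In each library taken alone it was the same 5 of 6, beside 63.6% of protein-coding genes in replicate 1 and 67.7% in replicate 2. The signals below are the authors' values for each peak, whose unit is not stated, and they were treated here as heights. The promoter signal of a gene is the highest peak within 1 kb of any of its starts. The median promoter signal of the accessible protein-coding genes was 2.33 as a mean of both libraries. Ube3a lay above that median and the other 5 genes below it.

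Ube3a encodes an E3 ubiquitin ligase, which tags proteins for degradation. Its promoter signal was 4.62 in replicate 1 and 4.74 in replicate 2, a mean of 4.68 ± 0.0904 (SD, n = 2). This was the highest of the 6, at percentile 81.8 of accessible protein-coding promoters, and both animals were close. A second shared DHS, chr7:59229301-59229920, lay over the downstream group of its RefSeq starts, with 0.840 in replicate 1 and 0.901 in replicate 2. The gene has 16 annotated GENCODE starts, which gives it more windows than the others. The rest of its 82787 bp held no shared DHS, so both of the shared DHSs in the gene body stood at its promoter.

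Snrpn encodes SmN, a core protein of the spliceosome in neurons, and its start is shared with Snurf, a short reading frame on the same transcript. Its promoter signal was 1.53 in replicate 1 and 1.37 in replicate 2, a mean of 1.45 ± 0.113 (SD, n = 2) and percentile 31.2. The value stood at chr7:60005061-60005260, over the start nearest the coding exons. Downstream of it, inside the gene, 3 more shared DHSs followed within about 2 kb. The farthest, chr7:60003081-60003340, had 0.740 in replicate 1 and 0.901 in replicate 2, and the nearest, chr7:60003921-60004420, had 0.555 in replicate 1 and 0.851 in replicate 2. All 3 were higher in replicate 2, whereas the DHS at the start was higher in replicate 1.

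Ndn, Magel2, Mkrn3 and Peg12 have a single exon each in GENCODE and lie within 118 kb. Mkrn3 encodes a makorin RING finger ubiquitin ligase, known in humans as a brake on the onset of puberty. Its promoter signal was 2.64 in replicate 1 and 1.31 in replicate 2, a mean of 1.97 ± 0.938 (SD, n = 2) and percentile 42.7. Replicate 1 was 2.01-fold higher, the widest gap between the animals among the 6 promoters. A second DHS 439 bp from the Mkrn3 start, chr7:62419441-62419700, had 1.01 in both libraries, so the gap at the start was not seen next to it.

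Ndn encodes necdin, a protein of the MAGE family that restrains growth in neurons. No peak of either library lay within 1 kb of its GENCODE start, chr7:62346569. The RefSeq start is 1708 bp farther downstream, at chr7:62348277, and stood inside a shared DHS, chr7:62348181-62348380. Its signal was 1.56 in replicate 1 and 0.946 in replicate 2, a mean of 1.26 ± 0.437 (SD, n = 2). The 2 windows also differed in sequence: the CpG ratio (observed over expected CpG sites) was 0.170 within 500 bp of the GENCODE start and 0.738 in the DHS. Ndn thus counted as having no promoter DHS by one annotation and as having one of the height of Snrpn by the other.

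Peg12 encodes a protein of the FRAT family, which bind the kinase GSK3 in Wnt signalling. Its promoter signal was 0.516 in replicate 1 and 0.533 in replicate 2, a mean of 0.524 ± 0.0115 (SD, n = 2) and percentile 5.73. Magel2 encodes a MAGE family protein that works with ubiquitin ligases in endosomal protein sorting. Its promoter signal was 0.609 in replicate 1 and 0.423 in replicate 2, a mean of 0.516 ± 0.131 (SD, n = 2) and percentile 5.44. When both libraries were held to the same number of top peaks, Magel2 had no DHS shared by both, and 4 of 6 genes had one by GENCODE starts. Peg12 and Magel2 were thus low among accessible promoters. The CpG ratios at their starts were 0.847 at Peg12 and 0.544 at Magel2, against a median of 0.333 over the protein-coding starts of chromosome 7. That median was not limited to accessible promoters, so whether these ratios are high among accessible promoters was not tested.

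In order of mean signal the genes ran Ube3a, Mkrn3, Snrpn, Ndn, Peg12 and Magel2. Ube3a did not overlap any of the others, and Peg12 and Magel2 lay below the other 4 in both libraries. The place of Snrpn rests on the start nearest its coding exons: by its most 5′ GENCODE start alone its mean was 0.340, with 0.316 in replicate 1 and 0.363 in replicate 2, below Peg12 and Magel2 in both libraries. Among the rest the order was not resolved, since the values of Mkrn3 enclosed those of Snrpn, the values of Ndn also reached above and below those of Snrpn, and Magel2 enclosed Peg12. Of the lowest false discovery rates (FDRs) listed at these promoter DHSs, the smallest in both libraries was at Ube3a and the largest at Magel2. It was 3.8257e-44 in replicate 1 and 1.45779e-87 in replicate 2 at Ube3a, and 0.000192381 in replicate 1 and 1.58491e-07 in replicate 2 at Magel2. The FDR did not follow the height throughout, since in replicate 1 Peg12 was lower than Magel2 and had the smaller FDR, 3.88112e-08.

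**Figure D1:**
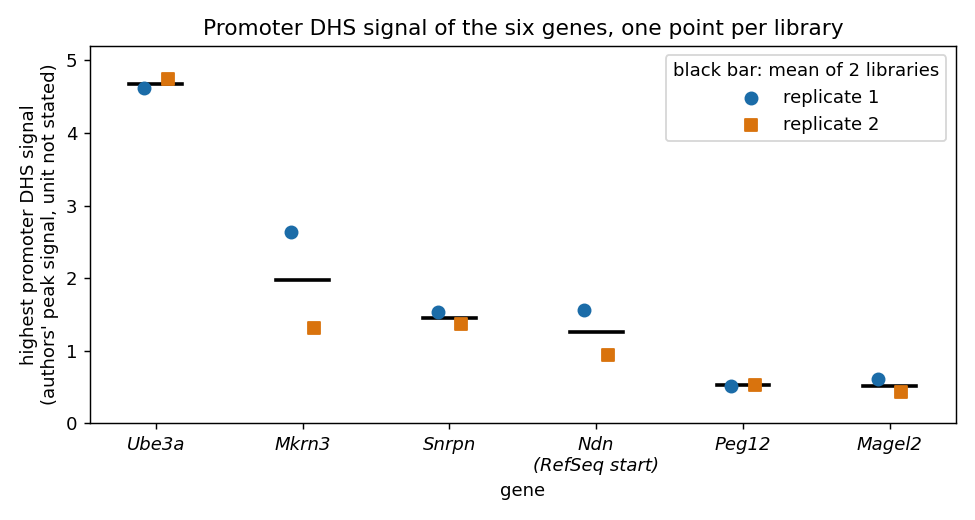
Promoter DHS signal (authors' peak signal, unit not stated) of the 6 genes on the vertical axis, with 1 point per library and a black bar for the mean of 2 libraries. Ube3a stands at 4.62 and 4.74, Mkrn3 is split between 2.64 and 1.31, and Peg12 and Magel2 reach at most 0.609. Ndn is shown at its RefSeq start.

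Within 1 kb of the GENCODE starts, replicate 1 held 35 footprints over the 6 genes and replicate 2 held 50. Of the 35 in replicate 1, 26 (74.3%) overlapped a footprint of the other library, and of the 50 in replicate 2, 25 (50%) did. The same shares over all footprints of the genome were not computed, so whether these are usual is not known. By gene, replicate 1 and replicate 2 held 10 and 16 footprints at Ube3a, 10 and 11 at Mkrn3, 7 and 10 at Snrpn, 6 and 8 at Peg12 and 2 and 5 at Magel2. Ndn had 0 in both by its GENCODE start, and the DHS at its RefSeq start held 4 in replicate 1 and 5 in replicate 2. Counting a gene once it had a footprint in both libraries gave 5 of 6, beside 60.8% of all protein-coding genes.

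Motif letters were searched on both strands in these DHSs and in 32851 RefSeq promoter windows of 300 bases. A match describes the letters and is not a binding site. The ZFP57 hexamer TGCCGC, bound in its methylated form by a zinc finger protein that maintains imprints, occurred at 2 places in the DHS at the nearest Snrpn start. One of these, chr7:60005196-60005201, covered the start base and lay wholly in a footprint of both libraries, seen as GCGGCA within the capitals of the Snrpn sequence above. The hexamer also occurred in the second Ube3a DHS, outside footprints, and in 11.6% of all windows. At Ube3a the SP/KLF box GGGGCGGGG, 102 bp upstream of the first start, lay wholly in footprints of both libraries, and 11.4% of windows held it. At Mkrn3 the ETS box CCGGAAGT occurred at 2 places, of which the one 79 bp upstream of the start lay wholly in footprints of both libraries, and 3.89% of windows held it. The YY1 core CCATNTT, held by 16.1% of windows, touched a footprint of both libraries at Ube3a and Mkrn3. Matches to part of a string were not counted here, and the central letters of the NRF1 string are taken up below. Among the strings found in no DHS at a start of the 6 genes were those of CTCF, in 0.402% of windows, and NRF1, in 0.971%. The others were a longer YY1 string, in 0.633%, TGACGTCA for CRE, in 1.79%, TTCAGCACC for REST, in 0.371%, and the RFX string, in 0.07%.

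Snrpn has 6 RefSeq starts, and 5 of them lie 42.8, 92.4, 135, 165.8 and 445 kb upstream of the one nearest the coding exons. These far upstream exons are known as alternative first exons of Snrpn that are used in brain and oocytes. A shared DHS stood at each of the 6. The start base itself lay inside it at 5 of 6, and at the start 135 kb upstream the DHS began 22 bp away. Over the whole genome 33.6% of RefSeq mRNA start bases lay inside a DHS of both libraries. With equal numbers of top peaks Magel2, at 0.423 in replicate 2, had no shared DHS. The DHSs at 135 kb, with 0.363 in replicate 2, and at 445 kb, with 0.264, were lower still and would not be shared under that setting.

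The DHS 42.8 kb upstream had 0.778 in replicate 1 and 1.09 in replicate 2, and the one 165.8 kb upstream had 0.778 in replicate 1 and 0.697 in replicate 2. At 92.4 kb the values were 0.324 in replicate 1 and 0.478 in replicate 2, and at 135 kb they were 0.316 in replicate 1 and 0.363 in replicate 2. At 445 kb they were 0.462 in replicate 1 and 0.264 in replicate 2. All 5 were lower than the DHS at the nearest start in both libraries, and 3 of 5 were higher in replicate 2. The height did not fall evenly with distance, since the DHS at 165.8 kb was higher than those at 92.4 and 135 kb in both libraries.

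The upstream starts are near copies of each other. Over 300-base windows at the starts, the 10 pairs of upstream starts were 85.0 to 91.4% identical across 266 to 294 aligned bases. The start nearest the coding exons matched them less, at 73.7 to 79.4% across 95 to 189 aligned bases. Reads from copied sequence may not be placeable, and the share of 31-base words that occur once in the reference genome was 100% in the DHS at the nearest start. It was 75.4% at 42.8 kb, 71.2% at 92.4 kb, 90.3% at 135 kb, 60% at 165.8 kb and 9.47% at 445 kb. The part of copy number in these heights was not tested.

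The 8-letter palindrome CGCATGCG, chosen after the sequences had been seen, occurred in the DHS at all 6 Snrpn starts and at the Ndn start, and in 1.87% of the 32851 promoter windows. Its letters are the central 8 of the NRF1 string searched above, which was found whole in none of these DHSs. At Ndn all but the first letter of that string matched. The palindrome is given here with 25 bases on either side at the 5 upstream starts and at Ndn, capitals again marking bases in footprints of both libraries. The windows were chr7:60048017-60048074, chr7:60097649-60097706, chr7:60140271-60140328, chr7:60171017-60171074 and chr7:60450208-60450265 on the minus strand and, for Ndn, chr7:62348229-62348286 on the plus strand.
Snrpn, 42.8 kb upstream: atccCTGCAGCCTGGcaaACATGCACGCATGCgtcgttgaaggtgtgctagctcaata
Snrpn, 92.4 kb upstream: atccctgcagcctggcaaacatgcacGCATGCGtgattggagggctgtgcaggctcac
Snrpn, 135 kb upstream: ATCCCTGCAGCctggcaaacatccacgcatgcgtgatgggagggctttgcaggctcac
Snrpn, 165.8 kb upstream: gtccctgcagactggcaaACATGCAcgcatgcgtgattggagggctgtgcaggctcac
Snrpn, 445 kb upstream: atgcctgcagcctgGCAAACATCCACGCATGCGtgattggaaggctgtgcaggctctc
Ndn: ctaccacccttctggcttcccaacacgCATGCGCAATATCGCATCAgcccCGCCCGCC

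At the upstream starts the palindrome lay 56 to 86 bp before the start, and at Ndn it lay 16 bp before it. At the nearest Snrpn start it lay past the start, with its far end 43 bp away, in the last bases of the Snrpn sequence shown first. A footprint touched it in 4 of the 6 Snrpn DHSs in replicate 1 and in 3 of 6 in replicate 2. The 445 kb site was the one that lay wholly in footprints of both libraries, and at the nearest start no footprint of either library reached it. Since the upstream starts are copies, these matches share their sequence and are not independent.

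**Figure D2:**
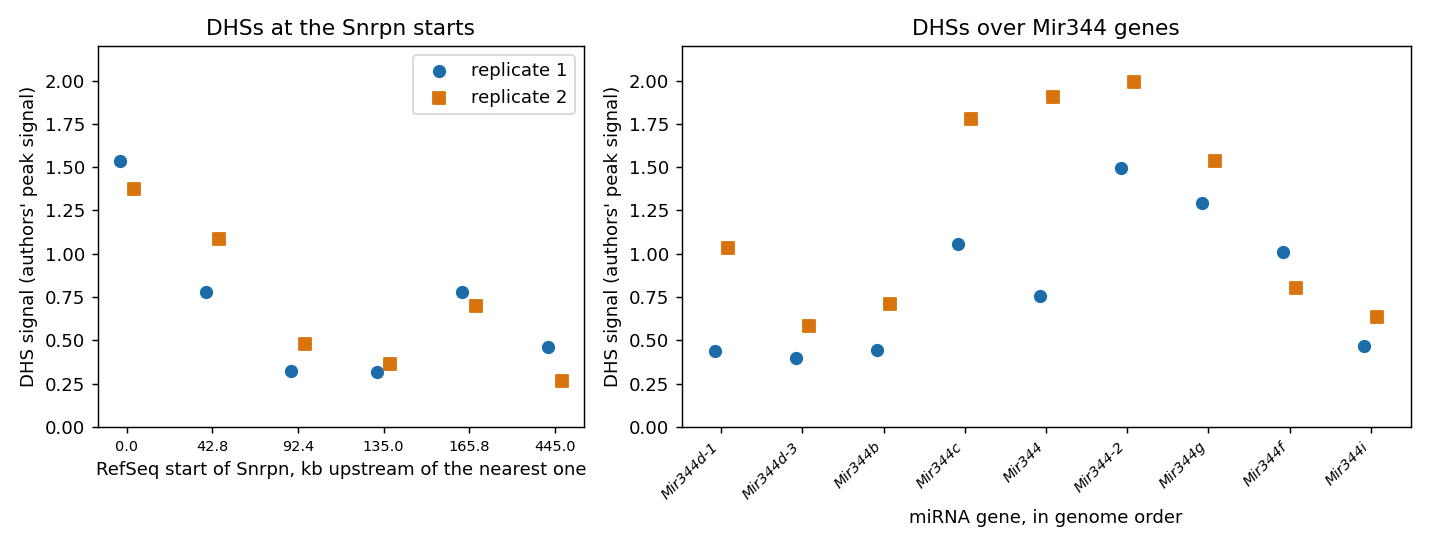
DHS signal (authors' peak signal) on the vertical axis, with circles for replicate 1 and squares for replicate 2, at the 6 Snrpn RefSeq starts by their distance upstream in kb (left) and over 9 Mir344 genes in genome order (right). The nearest Snrpn start has the highest signal of the 6 in both libraries, and 8 of the 9 Mir344 DHSs are higher in replicate 2.

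Across the whole locus, 79 DHSs of replicate 1 and 119 of replicate 2 gave 68 shared DHSs, 11 seen in replicate 1 alone and 48 in replicate 2 alone. The 68 became 40 in the authors' stricter peak lists and 39 at the same number of top peaks per library. In replicate 1, 86.1% of DHSs met one of replicate 2, beside 89.2% in the whole genome. In replicate 2, 58.8% of DHSs met one of replicate 1, beside 45.6% in the whole genome. The density was 20.7 shared DHSs per Mb in the locus, 34.6 on chromosome 7 and 29.5 in the genome, a ratio of locus to genome of 0.701. The DHSs were also lower, with a median signal of 0.401 in replicate 1 and 0.314 in replicate 2, against 0.678 in replicate 1 and 0.463 in replicate 2 over the genome. In the locus 65.9% of 31-base words occurred once in the genome, and the part of repeated sequence in the low density was not tested. Of the 68 shared DHSs, 34 lay within 1 kb of any GENCODE start.

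**Figure D3:**
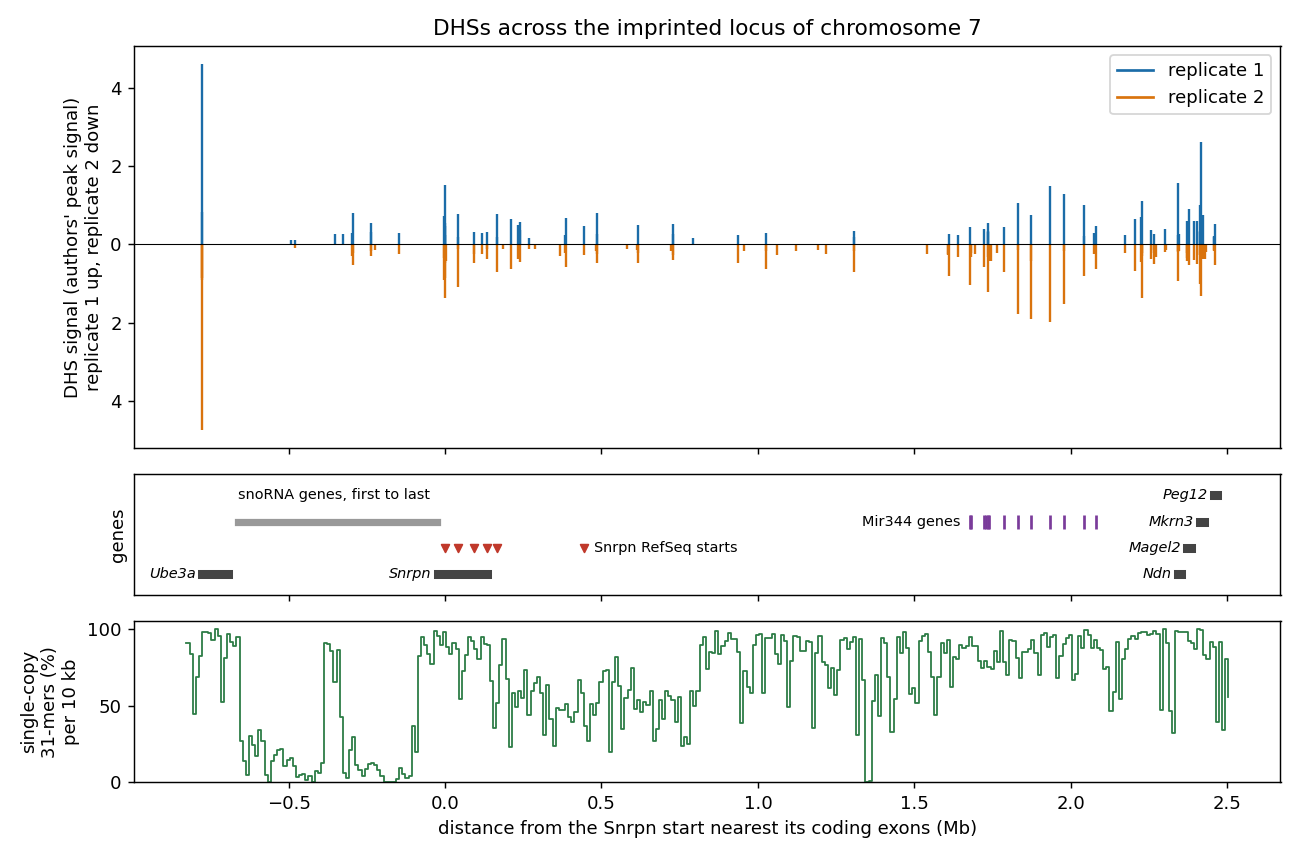
DHSs along the locus by distance in Mb from the Snrpn start nearest the coding exons, with the signal of replicate 1 drawn up and of replicate 2 drawn down (top), the genes (middle) and the share of single-copy 31-base words per 10 kb (bottom). Few and low DHSs stand over the snoRNA genes, where single-copy sequence is scarce, and the far right, from Ndn to Peg12, is dense with DHSs.

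The DHSs were spread unevenly. From Ndn to Peg12, 118 kb held 14 shared DHSs, a density of 11.9 per 100 kb, with 92.9% single-copy words. The 671 kb between the ends of Ube3a and Snrpn, which carries most of Snhg14, the host transcript of the snoRNAs and of the Ube3a antisense, held 6 shared DHSs, a density of 0.894 per 100 kb. It contains all 210 snoRNA genes of the locus, and none of them overlapped a DHS in either library, beside 1.99% of all snoRNA genes that overlapped one in both. There 28.9% of words were single-copy, and the median over the snoRNA genes was 0%. The part of repeated sequence in these counts was not tested. The longest stretch without a DHS in either library, 282 kb, began inside Ube3a, just past its promoter DHSs, at chr7:59229921-59511699, and covered the rest of that gene and 79 snoRNA genes. Within it 48.5% of words were single-copy, a mixture of the Ube3a gene, with 89.9%, and sequence of the snoRNA interval.

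Inside the cluster from Ndn to Peg12, 9 of the 14 shared DHSs were in or at the 4 genes and the other 5 lay between them. The highest of those between them, chr7:62382481-62382700, 5471 bp from the Magel2 start, had 0.909 in replicate 1 and 0.533 in replicate 2. It was higher than the DHS at the Magel2 start in both libraries. Another, chr7:62428441-62428616, had 0.763 in replicate 1 and 0.363 in replicate 2, and was 2.10-fold higher in replicate 1.

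The longest interval between genes of the 6, from the farthest Snrpn start to Ndn, spans 1896 kb and held 31 shared DHSs, or 1.63 per 100 kb. Its highest were over Mir344 genes, a family of hairpin microRNAs. Of 13 named Mir344 genes, 9 overlapped a DHS in both libraries, and 1 of the other 7 microRNA genes of the locus did. Over the genome 4.31% of microRNA genes overlapped one in both. Of the named Mir344 genes without a DHS, Mir344h-1 and Mir344h-2 have 0% single-copy words, Mir344d-2 has 60% and Mir344e has 100%. Reads over Mir344h-1 and Mir344h-2 may thus not be placeable, and a shared DHS, chr7:61739461-61739640, lay 52 bp from the Mir344h-1 start. The part of repeated sequence in these counts was not tested. The mature sequences are shown because 6 of the 19 mature names of the family share the seed GUCAGGC (bases 2 to 8, in capitals), and their 7 hairpins are all among the 9 with a DHS.
mmu-miR-344-5p: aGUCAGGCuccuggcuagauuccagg
mmu-miR-344b-5p: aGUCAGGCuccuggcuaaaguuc
mmu-miR-344c-5p: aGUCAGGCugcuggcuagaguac
mmu-miR-344d-1-5p: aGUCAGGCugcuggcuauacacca
mmu-miR-344d-3-5p: aGUCAGGCuagugguuauacucc
mmu-miR-344g-5p: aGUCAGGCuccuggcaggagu

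The 13 hairpins of the RefSeq table gave 11 seeds in all. The mean DHS signal over the 9 genes ran from 0.492 to 1.74 with a median of 0.905, so the highest stood between the Snrpn and Mkrn3 promoters. That one, at Mir344-2, had 1.495 in replicate 1 and 1.99 in replicate 2. Mir344g had 1.29 in replicate 1 and 1.53 in replicate 2, in a DHS that also covered the start of the non-coding A330076H08Rik. Mir344c had 1.06 in replicate 1 and 1.78 in replicate 2. The lowest, at Mir344d-3, had 0.401 in replicate 1 and 0.582 in replicate 2. The DHSs reached 130 to 239 bp (median 212) before the 5′ end of the hairpin and 0 to 338 bp (median 46) past its 3′ end, so most reached farther on the upstream side.

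Among other non-coding starts in this interval, shared DHSs stood at A230006K03Rik, with 0.339 in replicate 1 and 0.712 in replicate 2, and at Gm9801, with 0.655 in replicate 1 and 0.677 in replicate 2. The start of B230209E15Rik had 0.262 in replicate 1 and 0.816 in replicate 2. Away from any annotated start, chr7:62231241-62231560, 21762 bp from the Gm9801 start, had 1.13 in replicate 1 and 1.37 in replicate 2.

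The difference between the animals varied along the locus. The log2 ratio of replicate 2 to replicate 1 had a median of -0.13 over the 68 shared DHSs and -0.05 over the 78165 shared DHSs of the genome, with SDs of 0.619 in the locus and 0.515 in the genome. From Ndn to Peg12 it had a median of -0.54, and 12 of 14 DHSs were higher in replicate 1. Over the 9 Mir344 DHSs it had a median of 0.54, and 8 of 9 were higher in replicate 2. In all, 10 of 68 differed by more than 2-fold, beside 5% in the genome. The largest ratio toward replicate 2 was 3.12-fold at the B230209E15Rik start, followed by 2.52-fold at Mir344, which had 0.755 in replicate 1 and 1.91 in replicate 2. The largest toward replicate 1 was 2.13-fold at chr7:62307001-62307200, with 0.393 in replicate 1 and 0.184 in replicate 2. Each library is 1 animal, so differences between them have no replicate.

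**Figure D4:**
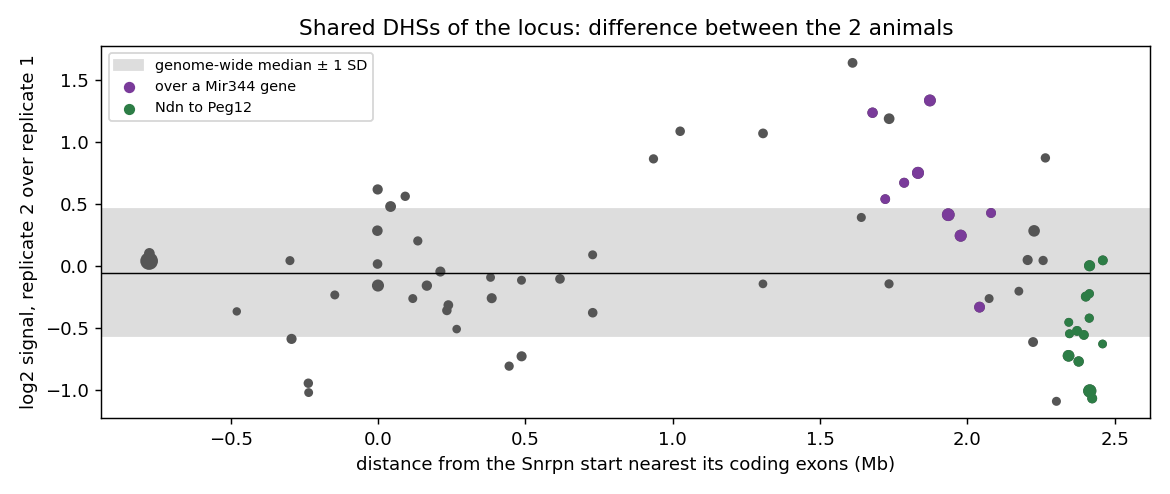
Log2 ratio of replicate 2 over replicate 1 for the 68 shared DHSs on the vertical axis, by distance in Mb from the Snrpn start nearest the coding exons, with larger points for higher signal. The grey band is the genome-wide median ± 1 SD. Most Mir344 points lie above the median and 12 of the 14 from Ndn to Peg12 lie below 0.

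The other annotated genes listed, 13 in all, lie in the locus or before it on chromosome 7, as far as Tubgcp5 at chr7:55794154-55831677. Of the 13, 11 had a promoter DHS in both libraries, beside 62.7% of all protein-coding genes. One of these, Snurf, shares the DHS of the Snrpn promoter. Snhg14 and A330076H08Rik lie inside the locus and are non-coding, so the share of protein-coding genes is not matched to the list. Herc2, a large ubiquitin ligase, had the highest promoter signal of the 13, at 8.20 in replicate 1 and 8.40 in replicate 2, above Ube3a. The lowest was at Snhg14, with 0.285 in replicate 1 and 0.294 in replicate 2. That DHS, chr7:59706381-59706620, stood at a start inside the gene, with 23.3% single-copy words. The most 5′ start of Snhg14, chr7:59975759, lay in no shared DHS. Atp10a, next to Ube3a, had a promoter DHS in replicate 1 alone, at 0.293, and the pigment gene Oca2 had none. By GENCODE starts, the 5 genes of the locus with a promoter DHS had a median signal of 1.45. Of 30 imprinted genes elsewhere, 25 had one in both libraries, beside the same 62.7% of protein-coding genes, with a median signal of 1.53 among them. Peg10 and Sgce share 1 DHS among these, as do Peg3 and Usp29. The imprinted list also holds non-coding genes, so the protein-coding share is not matched to it either.

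The tissue label was set against cell type markers. Promoter DHSs in both libraries were found at 10 of 11 genes of neurons, 3 of 4 of astrocytes, 3 of 4 of the oligodendrocyte lineage, 1 of 3 of microglia, 0 of 2 of endothelium and 0 of 4 not of the brain. The exceptions were Gad2, Aqp4, Csf1r, Cldn5 and Alb, each seen in replicate 2 alone, and Mog, Tmem119, Cdh5, Acta1, Apoa1 and Cd3e, seen in neither. Over all protein-coding genes the share was 62.7%, so 3 of 4 in a list is close to that share and says little about cell type.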

How the data were processed

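DNase-seq was measured in 2 libraries of 1 group. Per the labels, the authors aligned to mm10. The aligner and both callers are not named in the labels or notes used here. Each library came with 2 deposited peak lists, and the larger was used. Its peak signal was deposited with no stated unit, and its values came in whole steps of 0.00771 (replicate 1) or 0.00498 (replicate 2), which leaves the depth unknown. The authors also deposited segments with an FDR (q-value) of at most 0.05, and footprints whose deposited p-value column is constant at 0.01, so footprints could not be ranked.

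A shared DHS is a merged region with a peak of each library (overlap of at least 1 bp), with the highest peak signal of each. Starts came from GENCODE M21. RefSeq starts were added after Ndn had been seen without a DHS. Single-copy words were counted over 31-base words of the GRCm38.p6 chromosomes on both strands. Only values per library, means, SDs and counts were computed, so no p-values exist, and the number of libraries limits the precision. The members, gene lists and motifs were chosen with earlier results of these data known. The named genes were the 6 members and, by counts, the neighbour, imprinted and marker lists. The named regions were the promoter DHSs, the 5 highest shared DHSs with no GENCODE start within 1 kb and the 2 with the largest ratio in each direction. Those 5 include DHSs at RefSeq starts of Ndn and Snrpn. Others were named after their values were seen. Overlap, merging and motif functions were tested on simulated data, and the word-count function was not. The tools were pandas 2.3.3, NumPy 2.4.6, Numba 0.67.0, Biopython 1.88 and Matplotlib 3.10.9 under Python 3.11.15.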

Additional observations from a re-analysis of the deposited data

How the results depend on the processing

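Alternatives were the stricter peak list, equal numbers of the highest peaks, other overlap rules, promoter windows, starts and flanks, and each library alone; RefSeq starts were added after seeing the data. Of the values recomputed, 86 were counted as close and 18 as moved. A count was close within a set fold change, and a signal or density ratio within 1 SD. The fall from 5 to 4 genes with a promoter DHS thus counted as close. A missing value, as for the Magel2 signal with equal numbers, was not counted. Apart from Snrpn by its most 5′ start, promoter signals over both libraries came from the same peaks and were unchanged wherever present. Their place among the 86 thus says little about stability. Promoter signals of each library alone counted as close even at Mkrn3, with 2.64 in replicate 1 and 1.31 in replicate 2 against a mean of 1.97. With 2 libraries each value always lies within 1 SD of their mean, so these signals cannot test stability. The 68 shared DHSs of the locus became 40 in the stricter list and 39 with equal numbers, and each library alone gave 79 to 119. The density ratio of 0.701 became 0.498 with equal numbers, and 0.546 to 0.707 in each library alone. The Snrpn promoter signal of 1.45 became 0.340 when its most 5′ GENCODE start alone was used, which put it below Peg12 and Magel2. Shared DHSs in the gene body fell to 1 at Ndn and to 2 at Mkrn3 and 1 at Peg12 in the stricter list and with equal numbers, and to 2 at Mkrn3 and 1 at Peg12 with 50% overlap of both peaks. At Magel2 the count became 0 with equal numbers, where 4 of 6 genes had a promoter DHS by GENCODE starts. In each library alone the body counts were 9 to 12 at Snrpn, 3 to 4 at Peg12 and 1 to 2 at Magel2. Ndn has a promoter value with RefSeq starts or a 2 kb window, 1.26 ± 0.437 in both cases, and in no other alternative run. The cause of these moves was not tested. No paired analysis was possible because there is 1 group. Depth is unknown, and its part in the DHSs seen in 1 library alone was not tested. Of these, 3 of the 48 seen in replicate 2 alone held segments listed in replicate 1, and 4 of the 11 seen in replicate 1 alone held segments listed in replicate 2. The same shares over the whole genome were not computed, so whether these are usual is not known.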
